A study of Mus musculus with 16 samples.

Results

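The genes described here are 9 members of the interleukin-1 family and the inflammasome pathway: the cytokines Il1a, Il1b, Il18 and Il33, the antagonist Il1rn, the receptors Il1r1 and Il1r2, the sensor Nlrp3 and the protease Casp1. They were found by their symbols in the gene symbol column of the authors' array table, which holds 14 probes for them. After naming, these are 9 of 37461 genes, and 8 of the 9 were bright enough to be tested, among 30947 genes tested in all.

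RNA of whole tumours grown in the pancreas of female C57BL/6 mice was measured on 16 arrays with 1 colour each. The series asks how gene expression in these tumours differs over the time of treatment with ADH-503, a small-molecule agonist of CD11b, an integrin chain of myeloid cells. There were 5 arrays from tumours at 48 h of ADH-503, 5 arrays from tumours at 10 days of ADH-503, and 6 arrays from tumours of vehicle-treated mice. The titles of the treated samples call the compound LA1, while their treatment label names ADH-503. The vehicle samples carry no time, so the same 6 arrays are the controls of both treated groups, and how old their tumours were beside the treated ones is not stated. No genotype of the mice or of the tumour cells beyond the strain and the orthotopic model is given in the labels. The labels do not state that each sample came from its own mouse, so the p-values measure the spread between these samples, which may in part be technical.

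The arrays lie on 2 slides. Slide 1 holds 4 arrays of 48 h, 3 arrays of 10 days and 1 vehicle array, and slide 2 holds 1 array of 48 h, 2 arrays of 10 days and 5 vehicle arrays. Group and slide therefore overlap only in part, and values within each slide are given for most of the members and pathway genes named. No fold changes within slides are given for the cell type markers. The titles of 48 h replicate 5 and vehicle replicate 2 carry the same ID number, although the description of the vehicle sample gives another one. Their arrays correlated at r = 0.949 across genes, with 5 of the 120 pairs of arrays lower, and both were kept. All 12 macrophage markers and all 12 markers of duct and tumour epithelium were well above background on every array, as were 11 of 12 acinar markers.

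Interleukin-1 alpha and beta both act through the receptor encoded by Il1r1 and start NF-kappaB signalling through Myd88. Il1rn encodes a secreted antagonist that occupies this receptor without signalling, and Il1r2 encodes a decoy receptor. Interleukin-1 beta and interleukin-18 are made as inactive precursors, and the inflammasome, in which the sensor Nlrp3 recruits caspase-1 through the adaptor Pycard, cleaves them. Interleukin-1 alpha and interleukin-33 do not need caspase-1 and are released as alarm signals from damaged cells. In pancreatic tumours, macrophages and neutrophils are well-known sources of interleukin-1 beta, and tumour cells can make it too. The arrays measure RNA, so cleavage and release of the proteins were not measured.

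Probe sequences are shown for 3 members, because they define which part of each RNA a value reports. The Il1b probe A_66_P114500 starts at chr2:129190880 of build mm9 on the minus strand, and the Il33 probe A_55_P2614900 starts at chr19:30024240 on the plus strand and spans 2268 genomic bases, so it crosses a splice junction. The Il1r2 probe A_52_P417890 starts at chr1:40168971 on the plus strand and spans 2948 genomic bases, and it gave a different size of change from the brighter Il1r2 probe, as described further on.
Il1b A_66_P114500: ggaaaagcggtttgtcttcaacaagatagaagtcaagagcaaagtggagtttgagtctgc
Il33 A_55_P2614900: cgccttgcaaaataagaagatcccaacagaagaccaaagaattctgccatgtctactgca
Il1r2 A_52_P417890: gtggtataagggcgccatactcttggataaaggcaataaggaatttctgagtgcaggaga

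The 250 bases before a transcription start are shown for Il1a, Il1rn and Nlrp3, the 3 members whose levels moved together most closely across the arrays, and for Il1b, the cytokine of the set best known as an NF-kappaB and C/EBP target. They come from RefSeq on GRCm38.p6, which lists 3 starts for Il1rn and 2 for Nlrp3, and each is printed 5′ to 3′ on the strand of its gene. Capitals mark matches on either strand to GGGNNTTTCC (a form of the NF-kappaB motif), TTNNGNAA (a loose C/EBP motif) and TGANTCA (the AP-1 motif). Il1a is at chr2:129309973-129310222 on the minus strand, Il1b at chr2:129371140-129371389 on the minus strand, the third start of Il1rn at chr2:24345121-24345370 on the plus strand, and the first listed start of Nlrp3 at chr11:59542436-59542685 on the plus strand.
Il1a: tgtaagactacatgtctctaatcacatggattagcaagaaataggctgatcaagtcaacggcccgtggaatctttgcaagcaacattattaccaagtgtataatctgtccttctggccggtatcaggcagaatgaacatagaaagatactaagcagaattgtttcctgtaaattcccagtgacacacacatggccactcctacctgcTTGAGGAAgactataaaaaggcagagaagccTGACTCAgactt
Il1b: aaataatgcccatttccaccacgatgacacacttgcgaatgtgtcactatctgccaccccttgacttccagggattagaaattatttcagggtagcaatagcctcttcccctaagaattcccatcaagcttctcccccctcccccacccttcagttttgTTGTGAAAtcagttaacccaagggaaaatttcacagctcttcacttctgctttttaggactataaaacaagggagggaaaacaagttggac
Il1rn: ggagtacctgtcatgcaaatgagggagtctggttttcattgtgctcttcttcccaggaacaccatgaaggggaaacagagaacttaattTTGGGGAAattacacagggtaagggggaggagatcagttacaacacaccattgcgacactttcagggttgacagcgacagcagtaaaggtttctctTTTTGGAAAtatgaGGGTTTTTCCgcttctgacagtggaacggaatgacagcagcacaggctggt
Nlrp3: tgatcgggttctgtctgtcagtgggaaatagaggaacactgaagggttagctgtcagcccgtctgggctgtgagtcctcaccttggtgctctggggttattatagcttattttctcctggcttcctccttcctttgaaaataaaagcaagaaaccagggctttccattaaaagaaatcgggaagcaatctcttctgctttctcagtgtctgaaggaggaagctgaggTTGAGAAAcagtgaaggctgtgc

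The NF-kappaB form GGGNNTTTCC was found before the third start of Il1rn, 51 bases upstream, and in 1.41% of 32851 promoter windows of this length. It was not found before the first or second listed start of Il1rn, or before any listed start of the other 8 members. Which start of Il1rn was used in these tumours was not tested. TTNNGNAA occurred in 36.8% of all windows and in each of the 4 shown. It had 3 matches before the third start of Il1rn, of which a pair overlap, 1 before the second and none before the first. TGANTCA occurred in 6.75% of all windows and was found 12 bases before the start of Il1a and, among the other members, before the first listed start of Il1rn. A further pair of motifs was searched and is not marked: GGGNNNNNCC, which includes the first motif and occurred in 45.8% of windows, and GAGGAA, which occurred in 23.3% and overlaps the TTNNGNAA match of Il1a. A match is a run of letters and not a measured binding site.

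In the limma fit across all 30947 genes, none of the 8 tested members passed an adjusted p of 0.05 in any of the 3 comparisons, and neither did any other gene (0% in each comparison). At an unadjusted p under 0.05 there were 790 genes at 48 h against vehicle (2.55%), 1094 at 10 days against vehicle (3.54%) and 1084 at 10 days against 48 h (3.5%), and no member was among them in this fit of 1 probe a gene. Other settings moved some members past that unadjusted limit at 10 days against vehicle: with a variance trend in place of the robust fit Il1a, Il1b and Il1rn had limma p-values of 0.042, 0.041 and 0.040, and with slide as a block Il1a and Il1rn had 0.0062 and 0.032, all with adjusted p-values above 0.9. Of the 8 tested members, 7 had a fold change below 0 at 48 h against vehicle, where 53.3% of all genes did. At 10 days against vehicle 6 of the 8 were below 0, where 52% of all genes were, and at 10 days against 48 h again 6 of 8, where 48.8% of all genes were. The medians of the members' log2 fold changes were -0.13 at 48 h and -0.24 at 10 days against vehicle, and -0.13 at 10 days against 48 h, while the medians of all genes lay between -0.01 and 0.01. The arrays of every pair of groups overlapped in each of the 8 tested members; over all genes, the arrays did not overlap in 0.139% at 48 h against vehicle, 0.21% at 10 days against vehicle and 0.511% at 10 days against 48 h. In whole-tumour RNA, fewer cells of a type and less RNA per cell cannot be told apart.

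**Figure D1:**
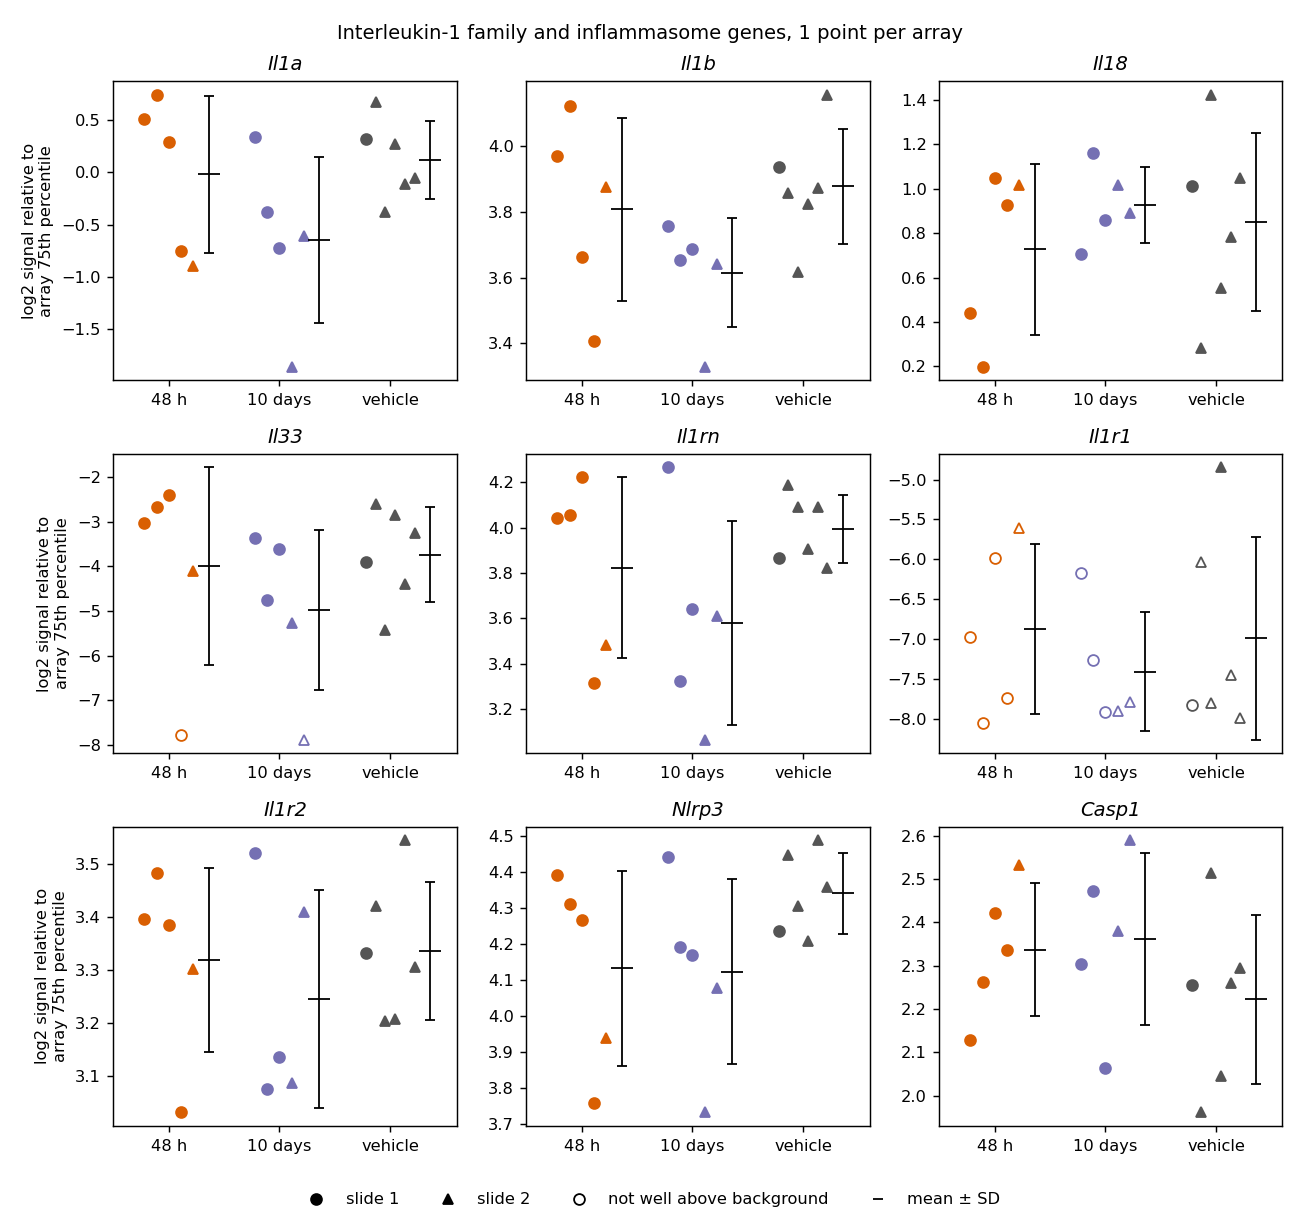
Log2 signal relative to the 75th percentile of each array (vertical axis) for the 9 genes, with 1 point per array at 48 h, 10 days and vehicle; circles are slide 1, triangles slide 2, open symbols are not well above background, and crossbars are group means ± SD. The 10 day arrays of Il1a, Il1rn and Nlrp3 lie mostly under the vehicle arrays, with 1 array each among or above them, Casp1 and Il18 are mixed, and Il1r1 is above background on 1 array.

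Values below are log2 processed signal minus the 75th percentile of the same array, so 0 is the level of a probe at that percentile, and a difference of 1 is a 2-fold change. Levels of different probes are not comparable. Fold changes come from limma with their standard error (SE) and 95% interval.

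Among the cytokines, Il1a, the alarm cytokine that signals through the interleukin-1 receptor, had a lower mean at 10 days than at 48 h and in vehicle, within the spread of the arrays. Its 10 day arrays had 0.34, -0.38, -0.72, -1.86 and -0.61. The 48 h arrays had 0.51, 0.75, 0.30, -0.75 and -0.90, and the vehicle arrays ran from -0.38 over a median of 0.11 to 0.67. At 10 days 4 of 5 arrays lay under the lowest vehicle array, 1 of them by the narrow margin of -0.3802 against -0.3781, and the other one lay within the vehicle range, while at 48 h 3 arrays lay within or above that range and 2 lay under it. The means were -0.65 ± 0.79 at 10 days (SD, n = 5) and 0.12 ± 0.38 in vehicle (SD, n = 6). The difference was -0.77 (SE 0.37, 95% interval -1.56 to 0.03), with an unadjusted limma p of 0.057 and an adjusted p of 0.99998, and an exact two-sided permutation test over the arrays gave p = 0.065. At 48 h the mean was -0.02 ± 0.75 (SD, n = 5) and the difference from vehicle was -0.14 (SE 0.37, 95% interval -0.93 to 0.65). Between the treated groups, 10 days minus 48 h was -0.63 (95% interval -1.46 to 0.20).

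Slide moved the Il1a values. With slide as a block, the difference from vehicle was -1.11 (SE 0.35) at 10 days, with an unadjusted limma p of 0.0062 and an adjusted p of 0.99997, and -0.64 (SE 0.37) at 48 h. Within slide 1, which has 1 vehicle array, 10 days minus vehicle was -0.57, and within slide 2 it was -1.32. For 48 h the corresponding values were -0.12 in slide 1 and -0.98 in slide 2, which has 1 array of 48 h. Without the arrays whose titles share an ID number, the 48 h difference was 0.19, above 0, and the 10 day difference was -0.66. The 10 day difference was -0.46 without 10 days replicate 4.

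Il1b, the main secreted interleukin-1, differed less. Its 10 day arrays had 3.76, 3.65, 3.69, 3.33 and 3.64. The 48 h arrays had 3.97, 4.12, 3.66, 3.41 and 3.88, and vehicle ran from 3.62 over a median of 3.86 to 4.16. All 5 of the 10 day arrays lay under the vehicle mean, but only 1 lay under the lowest vehicle array. The means were 3.61 ± 0.17 at 10 days (SD, n = 5) and 3.88 ± 0.18 in vehicle (SD, n = 6), a difference of -0.26 (SE 0.14, 95% interval -0.55 to 0.02). The unadjusted limma p was 0.070 with an adjusted p of 0.99998, and the exact two-sided permutation test gave p = 0.026, where the smallest p it can give is 0.00433. The 10 day difference was -0.24 within slide 1 and -0.38 within slide 2. At 48 h the mean was 3.81 ± 0.28 (SD, n = 5), and the difference from vehicle was -0.07 (SE 0.14, 95% interval -0.36 to 0.22), with -0.15 within slide 1 and 0.01 within slide 2.

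The other Il1b probes gave 10 day differences from vehicle of the same sign and similar size, -0.24 for A_51_P212782 and -0.20 for A_55_P2720183. The probes followed each other only loosely across the 16 arrays, with r = 0.40 to 0.61.

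Il18, the inflammasome substrate that drives interferon gamma, ran from 0.20 to 1.05 at 48 h, from 0.71 to 1.16 at 10 days and from 0.28 to 1.42 in vehicle. The vehicle arrays thus spanned nearly the whole range of both treated groups. The difference from vehicle was -0.12 (95% interval -0.55 to 0.31) at 48 h and 0.08 (95% interval -0.35 to 0.51) at 10 days, and the signs differed between slides at both times.

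Il33, an alarm cytokine of epithelial and stromal cells, was the only tested member not above background throughout, with its brightest probe well above background on 14 of 16 arrays. Its 10 day arrays had -3.38, -4.75, -3.62, -5.27 and -7.88. The 48 h arrays had -3.02, -2.66, -2.41, -7.77 and -4.10, and vehicle ran from -5.43 over a median of -3.58 to -2.60. The lowest array of each treated group was the one not well above background there, so Il33 was measured on 4 of 5 arrays at each time, and those 2 values are at background. The difference was -1.24 (SE 0.97, 95% interval -3.31 to 0.82) at 10 days and -0.26 (SE 0.97, 95% interval -2.32 to 1.81) at 48 h against vehicle. Within slides, the 10 day difference was -0.02 in slide 1 and -2.87 in slide 2, where 1 of the 2 arrays of 10 days is the one at background. The 48 h difference was -0.07 in slide 1, which holds the 48 h array at background, and -0.39 in slide 2. Without 10 days replicate 5, the 10 day array at background, the 10 day difference was -0.52, and with normexp background correction it was -0.51. Without 48 h replicate 4, the 48 h array at background, the 48 h difference was 0.69, above 0. The second Il33 probe was well above background on 4 of 5 arrays at 48 h, 2 of 5 at 10 days and 6 of 6 in vehicle, so its 10 day difference of -1.60 (SE 0.97) rests largely on values at background.

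Il1rn, the receptor antagonist, varied more among treated tumours than among vehicle tumours. Its 10 day arrays had 4.26, 3.32, 3.64, 3.07 and 3.61. The 48 h arrays had 4.04, 4.06, 4.22, 3.32 and 3.48, and vehicle ran from 3.82 over a median of 3.997 to 4.19. Of the 10 day arrays 4 of 5 lay under all vehicle arrays and 1 lay above them, and at 48 h 2 of 5 lay under them. The SD was 0.45 at 10 days and 0.40 at 48 h (n = 5 each), against 0.15 in vehicle (n = 6), and this difference in spread was not tested. The mean was 3.58 at 10 days and 3.99 in vehicle, a difference of -0.41 (SE 0.20, 95% interval -0.85 to 0.02) with an unadjusted limma p of 0.061, an adjusted p of 0.99998 and an exact permutation p of 0.056. At 48 h the difference was -0.17 (SE 0.20, 95% interval -0.60 to 0.26).

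The second Il1rn probe, A_52_P431159, gave -0.60 (SE 0.28, 95% interval -1.19 to -0.01) at 10 days against vehicle, with an unadjusted limma p of 0.047 and an adjusted p of 0.99998, and it was -0.31 within slide 1 and -1.06 within slide 2. The 2 probes correlated at r = 0.86 over the 16 arrays. Within slide 1 the 10 day difference of the brighter probe was -0.12 and within slide 2 it was -0.68. With slide as a block it was -0.52 (SE 0.22). The 48 h difference was 0.04 within slide 1 and -0.53 within slide 2, so its sign differed between slides.

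Il1r1, the signalling receptor, was well above background on 1 of 16 arrays, vehicle replicate 4, and on none of the 5 arrays of 48 h or the 5 arrays of 10 days. Its measured means of -6.88 at 48 h, -7.41 at 10 days and -6.99 in vehicle lie below the level at which probes were called above background, and no fold change is given. The single probe, A_51_P271503, reports only its own stretch of the RNA.

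Il1r2, the decoy receptor, gave different sizes with its 2 probes. The brighter probe, A_55_P2804650, ran from 3.03 to 3.48 at 48 h, from 3.08 to 3.52 at 10 days and from 3.20 to 3.55 in vehicle, and its 10 day difference from vehicle was -0.09 (SE 0.12, 95% interval -0.34 to 0.16), with -0.09 within each slide. At 48 h its difference was -0.02 (SE 0.12), with -0.01 within slide 1 and -0.03 within slide 2. The other probe, A_52_P417890, printed above, ran from 2.19 to 3.20 at 48 h, from 1.89 to 2.87 at 10 days and from 2.84 to 3.22 in vehicle. Its 10 day difference was -0.50 (SE 0.20, 95% interval -0.92 to -0.07), with an unadjusted limma p of 0.025 and an adjusted p of 0.99998. With slide as a block it was -0.42 (SE 0.22) with an unadjusted limma p of 0.076, and it was -0.62 within slide 1 and -0.25 within slide 2. The brighter probe has the smaller change, both have the same sign, and they correlated at r = 0.71 over the 16 arrays. The difference between the probes was not tested.

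**Figure D2:**
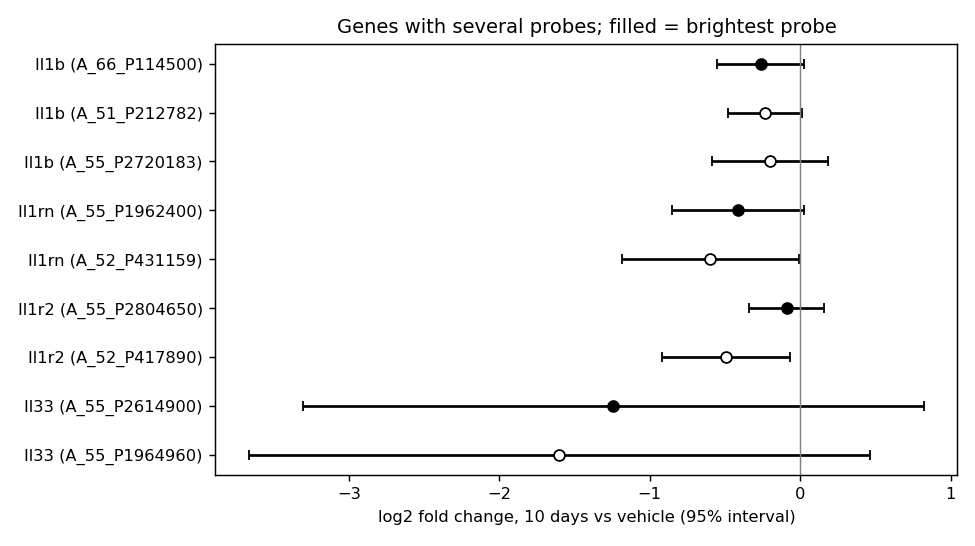
Log2 fold changes with 95% intervals (horizontal axis) for 10 days against vehicle of each probe of Il1b, Il1rn, Il1r2 and Il33, with the brightest probe of a gene filled. All 9 point estimates are below 0, and the intervals of Il1r2 A_52_P417890 and Il1rn A_52_P431159 end below 0 before adjustment and without the slide block; the dimmer Il33 probe is above background on 2 of 5 arrays at 10 days.

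Nlrp3, the sensor that forms the inflammasome, showed the same kind of spread as Il1rn. Its 10 day arrays had 4.44, 4.19, 4.17, 3.73 and 4.08. The 48 h arrays had 4.39, 4.31, 4.27, 3.76 and 3.94, and vehicle ran from 4.21 over a median of 4.33 to 4.49. The same 2 arrays of 48 h, replicates 4 and 5, lay under all vehicle arrays in Nlrp3, Il1rn and Il1a, and the same 4 arrays of 10 days did so in all 3 genes, in Il1a with the narrow margin given above. The difference from vehicle was -0.21 (SE 0.14, 95% interval -0.50 to 0.09) at 48 h and -0.22 (SE 0.14, 95% interval -0.52 to 0.08) at 10 days, with unadjusted limma p-values of 0.16 and 0.14. The 48 h difference was -0.05 within slide 1 and -0.42 within slide 2, and the 10 day difference was 0.03 within slide 1 and -0.46 within slide 2. Between the treated groups the difference was -0.01 (95% interval -0.32 to 0.30).

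Casp1, the protease that matures interleukin-1 beta and interleukin-18, was higher than vehicle in its means at both times, within the spread of the arrays. It ran from 2.13 to 2.53 at 48 h, from 2.06 to 2.59 at 10 days and from 1.96 to 2.51 in vehicle. The difference from vehicle was 0.11 (SE 0.12, 95% interval -0.15 to 0.38) at 48 h and 0.14 (SE 0.12, 95% interval -0.12 to 0.40) at 10 days. Within slide 1, which has 1 vehicle array, it was 0.03 at 48 h and 0.02 at 10 days. Within slide 2, which has 1 array of 48 h, it was 0.32 and 0.27. In the order of group means, 10 days was lowest and vehicle highest for Il1a, Il1b, Il1rn, Il1r2, Il33 and Nlrp3, while Casp1 had the reverse order, and no neighbouring groups in these orders differed past the threshold. Il18 was lowest at 48 h and highest at 10 days. The order of the treated groups in Nlrp3 turned round with the authors' table, with normexp and with slide as a block, where 10 days minus 48 h was 0.03, 0.05 and 0.03, that in Casp1 turned with slide as a block and that in Il1r2 with normexp.

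**Figure D3:**
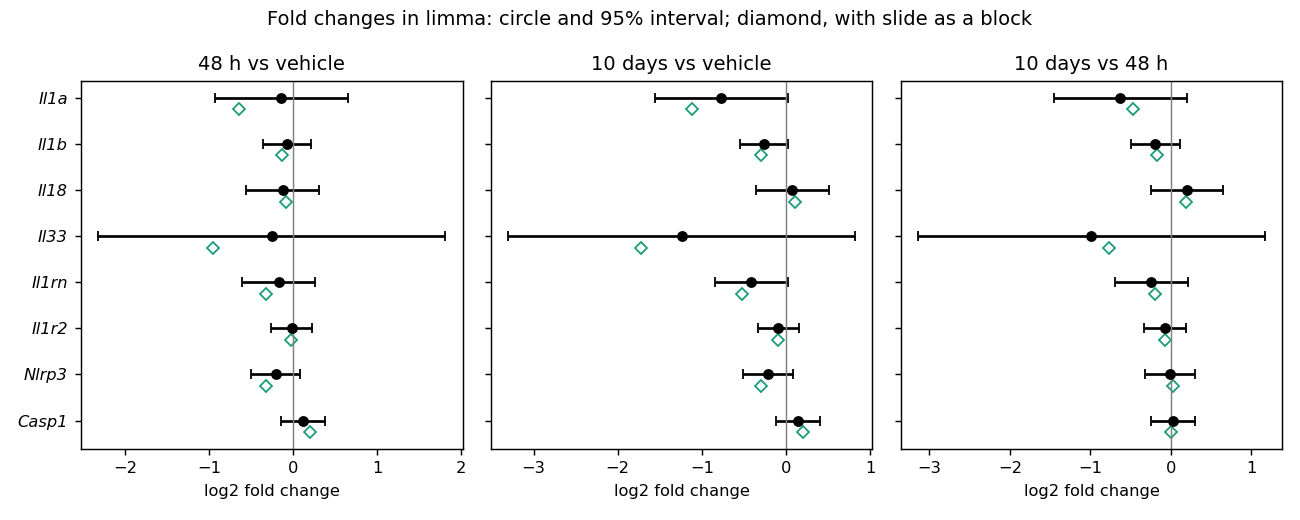
Log2 fold changes of the 8 tested members (circles, with 95% intervals) in the 3 comparisons, and the values with slide as a block (open diamonds). Every interval includes 0, and with the block the estimates of Il1a and Il33 against vehicle lie further below 0, at -1.11 and -1.72 at 10 days.

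Across the 16 arrays, without regard to group, Il1a, Il1b, Il1rn, Il1r2, Il33 and Nlrp3 correlated positively with each other. Among these, Il1a, Il1rn and Nlrp3 did so most closely. Il18 correlated with Casp1. These correlations describe arrays that share slides and scaling, and no p is given. Il1rn and Nlrp3 had r = 0.87 (Spearman's rho 0.83), with r = 0.78 within slide 1 and r = 0.95 within slide 2, and r = 0.77 after leaving out the 2 arrays farthest from the median of Il1rn. Of 30887 other genes, 0.0259% correlated with Il1rn at least as highly as Nlrp3 did. Il1a joined this pair, with r = 0.84 to Il1rn and r = 0.81 to Nlrp3, and Il1r2 had r = 0.77 to Il1rn and r = 0.71 to Nlrp3. With the group means removed, Il1rn and Nlrp3 had r = 0.88.

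Il18 and Casp1, substrate and enzyme, had r = 0.69 (rho 0.68), r = 0.50 within slide 1 and r = 0.81 within slide 2. Their correlations with the other 6 tested members were below 0 but uneven, from -0.59 (with Il1a) to -0.35 (with Nlrp3) for Il18 and from -0.58 (with Il33) to -0.13 (with Il1r2) for Casp1. Casp1 and Il1a had r = -0.02 within slide 1, and Casp1 and Il1r2 had r = -0.003 without the 2 arrays farthest from the median of Il1r2. Il1b had r = 0.71 to Il1a, and 0.47 without the 2 arrays farthest from the median of Il1a. Its r was 0.68 to Nlrp3, 0.62 to Il1r2 and 0.55 to Il1rn. These became 0.29, 0.37 and 0.16 without the 2 arrays farthest from the median of Il1b.

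**Figure D4:**
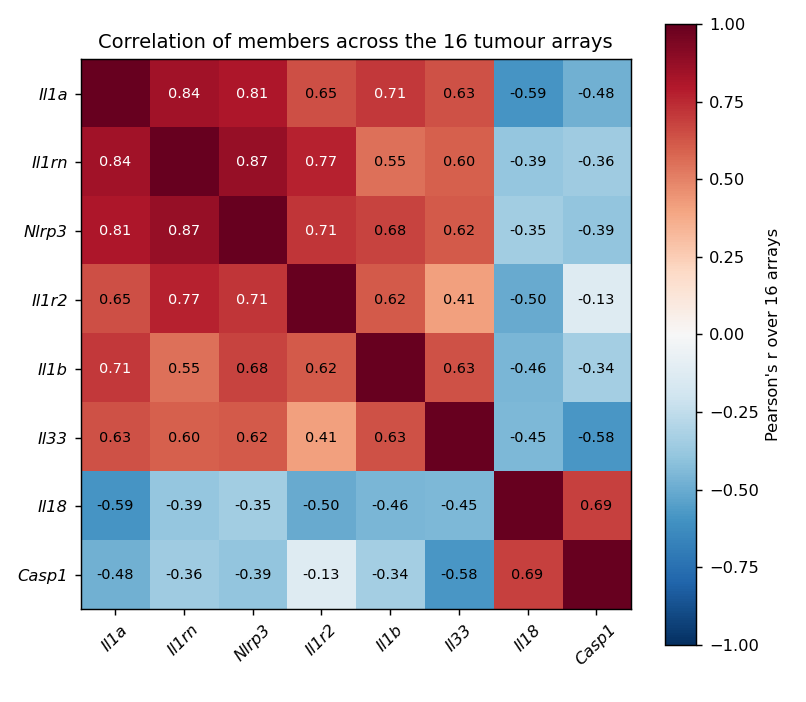
Pearson correlations between the 8 tested members over the 16 arrays; red is positive and blue negative. Il1a, Il1rn, Nlrp3 and Il1r2 have r from 0.65 to 0.87 with each other. Il1b and Il33 are also positive with each of them, with r from 0.41 (Il33 with Il1r2) to 0.71 (Il1b with Il1a). Il18 and Casp1 have r below 0 with the 6 other genes, from -0.59 to -0.13.

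Among 19464 genes with a symbol that were well above background on all arrays, the genes most like each member were sought by Pearson's r over the 16 arrays. The highest values among so many genes are large in part through this choice. Il1rn was closest to Dcstamp, which encodes a protein of macrophage and osteoclast fusion, at r = 0.95 (rho 0.91), followed by Flrt3 at r = 0.92 (rho 0.70). Il1a was closest to Tnfaip3, which encodes the NF-kappaB inhibitor A20, at r = 0.88, and then to the chemerin-binding receptor gene Ccrl2 at r = 0.87. Nlrp3 was closest to the phosphatase gene Dusp5 and the transcription factor gene Ets2, at r = 0.91 each. Il1b was closest to Csrnp1 and to Clec7a, the gene of the beta-glucan receptor dectin-1, at r = 0.85 each.

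Il18 was closest to the myeloid lectin gene Clec4a1 and to Tmem106a, at r = 0.85 each. Casp1 was closest to Smc6 and Sh3bp5l at r = 0.85 each, and Il1r2 to AA467197 and Creb3l2 at r = 0.81 and r = 0.80. Il33 was closest to Raet1c, an NKG2D ligand gene, and to the malic enzyme gene Me1, at r = 0.93 each (rho 0.94 and 0.76). Without the 2 arrays farthest from the median of Il33, r was 0.87 for Raet1c and 0.74 for Me1.

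Markers of other cell types varied with the members. The mean of 12 markers of duct and tumour epithelium, among them Krt19 and Epcam, correlated with Il33 at r = 0.84 (rho 0.83), and at r = 0.72 without the 2 arrays farthest from the median of Il33. The 2 arrays at background for Il33 are those with the lowest epithelial values. This epithelial mean ran from -1.17 to 1.43 at 48 h, from -0.97 to 0.73 at 10 days and from -0.29 to 1.54 in vehicle. At 10 days against vehicle 12 of its 12 genes had fold changes below 0, where 52% of all genes did. None of the 12 had an unadjusted p under 0.05, where 3.54% of all genes did. Il1a and Il1rn also correlated with the epithelial mean, at r = 0.69 and r = 0.68, and Casp1 and Il18 ran against it at r = -0.60 and r = -0.56. A list of intestinal epithelium, of which 6 of 8 genes were tested and 4 were well above background on all arrays, correlated with Casp1 at r = -0.79 and with Il33 at r = 0.77. The mean of 7 B cell markers correlated with Il18 at r = 0.70, and at r = 0.46 without the 2 arrays farthest from the median of Il18.

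The mean of 12 neutrophil markers correlated with Il1rn at r = 0.71 and with Il1a at r = 0.62, but with Il1b at r = 0.21. It ran from -1.34 to 0.10 at 48 h, from -1.74 to -0.41 at 10 days and from -0.98 to 0.21 in vehicle. At 10 days against vehicle 12 of 12 genes had fold changes below 0, where 52% of all genes did. Of the 12, 3 had an unadjusted p under 0.05, where 3.54% of all genes did. The macrophage mean ran from 3.62 to 3.76 at 48 h, from 3.59 to 3.72 at 10 days and from 3.37 to 3.66 in vehicle. Of the 12 macrophage genes, 0 had fold changes below 0 at 48 h against vehicle (median 0.14, 1 at an unadjusted p under 0.05). At 10 days against vehicle 1 of the 12 did (median 0.07, 0 at such a p). The macrophage mean correlated with Casp1 at r = 0.60 (0.63 within slide 1 and 0.77 within slide 2), with Il18 at r = 0.36 and with Il1b at r = -0.16. With the other tested members its r lay between -0.37 (Il33) and -0.06 (Il1r2). The acinar mean ran from 1.58 to 2.12 at 48 h, from -0.06 to 1.96 at 10 days and from 0.23 to 1.73 in vehicle. Of 12 acinar genes 6 had an unadjusted p under 0.05 at 48 h against vehicle (median 0.85), where 2.55% of all genes did. Of the same 12 genes, 10 did so at 10 days against 48 h (median -1.10), where 3.5% of all genes did. The acinar mean correlated with the members at r = -0.34 to 0.42. All 8 mast cell markers had fold changes below 0 at 10 days against vehicle (median -0.47, 1 at an unadjusted p under 0.05), and their mean correlated with Il1a at r = 0.60. All 7 tested of 8 red blood cell markers did so too (median -1.16, 3 at an unadjusted p under 0.05), and their mean correlated with Il1a at r = 0.06 and with Il1rn at r = 0.38. For the mast cell and red blood cell counts too, the shares of all genes were 52% below 0 and 3.54% at such a p. The part of these cell types in the members' values was not tested.

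**Figure D5:**
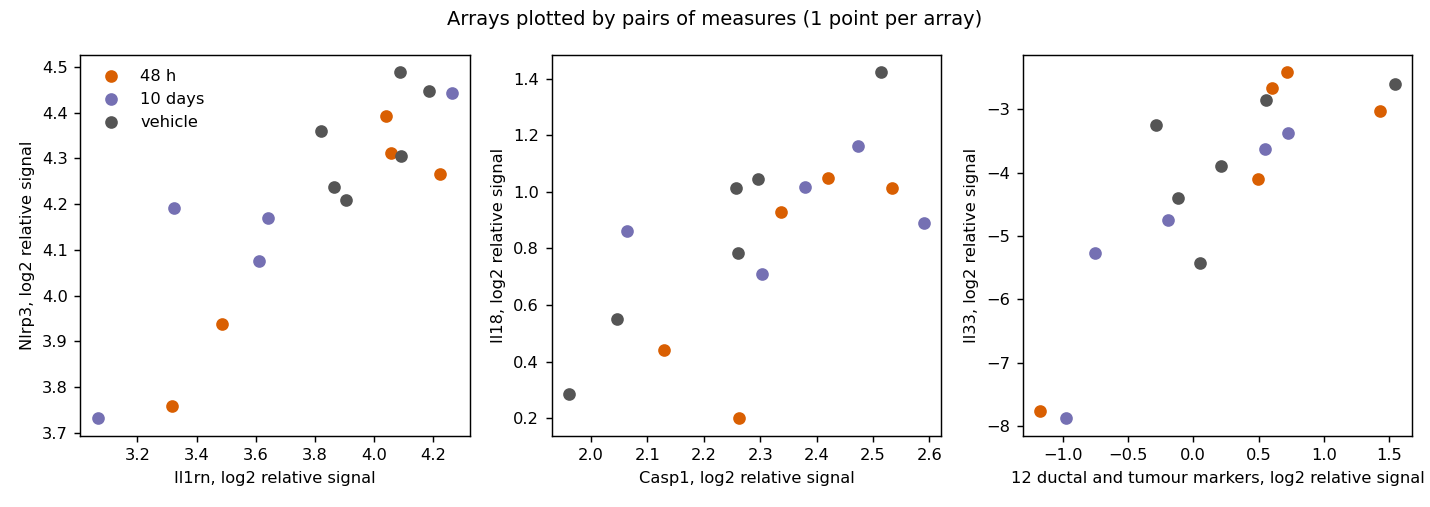
Log2 relative signal of Nlrp3 against Il1rn, of Il18 against Casp1, and of Il33 against the mean of 12 markers of duct and tumour epithelium, with 1 point per array coloured by group. The r over 16 arrays is 0.87, 0.69 and 0.84, and 0.88, 0.76 and 0.83 with the group means removed. Trends within single groups were not tested.

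The other genes of the pathway also had no call after adjustment in any comparison. Of 22 known targets of interleukin-1, 20 were tested, and Ccl20 and Csf2 were too dim. At 10 days against vehicle 17 of the 20 had fold changes below 0 (52% of all genes did), with a median of -0.20, and at 48 h 13 of 20 did (53.3% of all genes), with a median of -0.08. Ptgs2, the gene of cyclooxygenase-2 and a classical target, was the only 1 of the 20 at an unadjusted p under 0.05 at 10 days. Of all genes, 3.54% had such a p in this comparison. Its 10 day arrays had 1.80, 1.22, 1.46, 1.04 and 1.48. The 48 h arrays had 1.88, 1.97, 1.99, 1.31 and 1.43, and vehicle ran from 1.58 to 2.05. At 10 days 4 of 5 arrays lay under all vehicle arrays, and replicates 4 and 5 did so at 48 h. The 10 day difference was -0.54 (SE 0.16, 95% interval -0.88 to -0.19), with an unadjusted limma p of 0.0048 and an adjusted p of 0.99998, and it was -0.52 within slide 1 and -0.66 within slide 2. Lif, a cytokine of the interleukin-6 family, had -0.84 (SE 0.40, 95% interval -1.68 to 0.01) at 10 days, with -0.70 within slide 1 and -1.39 within slide 2. Cxcl5, a neutrophil chemokine, was well above background on 2 of 5 arrays at 48 h, 2 of 5 at 10 days and 5 of 6 in vehicle, so its 48 h difference of -1.10 (SE 0.60) rests largely on values at background. Tnfaip3 had -0.25 (SE 0.19) at 10 days against 48 h, with -0.04 within slide 1 and -0.49 within slide 2.

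Among the interleukin-36 genes and the other ligands, 4 of 5 were tested and Il1f5, the symbol in the annotation for Il36rn, was too dim. Il1f6, which encodes interleukin-36 alpha, had -0.72 (SE 0.30) at 10 days against vehicle with an unadjusted limma p of 0.029 and an adjusted p of 0.99998, but -0.09 within slide 1 and -0.96 within slide 2. Il1f8, the gene of interleukin-36 beta, had -0.20 (SE 0.16) at 48 h against vehicle, with -0.20 within slide 1 and 0.004 within slide 2. Il1f9, that of interleukin-36 gamma, had -0.28 (SE 0.36) at 10 days against vehicle, with -0.35 within slide 1 and -0.31 within slide 2. Of 9 further receptors and binding proteins of the family, 5 were below 0 at 48 h and 4 at 10 days against vehicle, where 53.3% and 52% of all genes were. Il1rapl2 was well above background on 1 of 5 arrays at 48 h, 2 of 5 at 10 days and 4 of 6 in vehicle, so its difference of -0.57 (SE 0.26) at 10 days against vehicle rests in part on values at background. Il1rapl1, a member best known in neurons, had 0.50 (SE 0.23) at 10 days against 48 h, with 0.38 within slide 1 and 0.53 within slide 2. Il1rap, the shared accessory chain of the signalling receptor, had 0.14 (SE 0.16) at 48 h against vehicle, but -0.04 within each slide.

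Of 15 inflammasome sensors, adaptors and priming genes, 10 had fold changes above 0 at 48 h and 9 at 10 days against vehicle, with medians of 0.04 and 0.01. The other 5 and 6 were below 0, where 53.3% and 52% of all genes were. Nlrc4, the flagellin and type III secretion sensor, had 0.59 ± 0.12 at 48 h (SD, n = 5) and 0.36 ± 0.16 in vehicle (SD, n = 6), a difference of 0.23 (SE 0.10; 0.33 within slide 1 and 0.30 within slide 2) with an unadjusted limma p of 0.040 and an adjusted p of 1. Txnip, a thioredoxin-binding protein gene, had 3.46 ± 0.21 at 10 days (SD, n = 5) and 3.06 ± 0.19 in vehicle (SD, n = 6), a difference of 0.40 (SE 0.18) that was 0.32 within slide 1 and 0.57 within slide 2. Nlrp12 had 0.69 (SE 0.32) at 10 days against vehicle, with 1.03 within slide 1 and 0.99 within slide 2. The 1 vehicle array of slide 1 was the lowest vehicle array, at -4.93. On slide 2, 10 days replicate 5 was the highest array of its group, at -2.48, and replicate 4 had -3.93. Mefv, the gene of pyrin, had -0.25 (SE 0.15) at 48 h against vehicle, with -0.04 within slide 1 and -0.21 within slide 2. Naip6 had 0.51 (SE 0.18) at 10 days against 48 h, with 0.31 within slide 1 and 1.25 within slide 2.

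Among 6 caspases and pore formers, 3 were above and 3 below 0 against vehicle at each time, where 53.3% of all genes were below 0 at 48 h and 52% at 10 days. Gsdmc and Ninj1, which act in lytic cell death, had -0.37 (SE 0.24) and 0.23 (SE 0.18) at 48 h. Their signs differed between slides. Gsdmc had 0.20 within slide 1 and -0.68 within slide 2, and Ninj1 had -0.17 within slide 1 and 0.33 within slide 2. At 10 days against 48 h Gsdmc had 0.51 (SE 0.25), with 0.19 within slide 1 and 1.11 within slide 2. In the 19 signalling genes, the medians were 0.01 at both times. Tollip, an inhibitor of interleukin-1 receptor signalling, had 0.27 (SE 0.12) at 48 h against vehicle, with 0.00 within slide 1 and 0.29 within slide 2. Irak3, another inhibitor, had -0.18 (SE 0.14) at 48 h, with -0.61 within slide 1 and 0.11 within slide 2. At 10 days against vehicle Tab2 had 0.16 (SE 0.08), with 0.03 within slide 1 and 0.24 within slide 2. Nfkb1 had -0.16 (SE 0.12) in that comparison, with -0.43 within slide 1 and 0.15 within slide 2. Traf6 had -0.18 (SE 0.15) at 10 days against 48 h, with -0.36 within slide 1 and 0.14 within slide 2.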

How the data were processed

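According to the labels' protocols, cDNA amplified from total RNA was labelled with Cy5 and hybridised to Agilent mouse arrays. The submitters' processing notes name Agilent Feature Extraction 11.5.1.1. Per the file headers, the deposited processed signal is a linear intensity from which the background was subtracted, with probe positions on mm9. The authors also deposited a quantile-normalized log2 table, used as an alternative: its sorted columns differ by at most 0.0043, its columns have a median of 10.19, and each matched its own array at r of at least 0.998. No column was left without a sample.

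Of 62976 spots per array, 3671 controls were left out, outlier spots were dropped, and no spot was saturated. Log2 intensity was averaged per probe and each array's 75th percentile subtracted; that percentile was 4953 to 6736, and the share of probes well above background 74.9% to 81.2%. The number of arrays, not read depth, limits the precision. Probes were named through RefSeq genes of GRCm38.p6: 32989 by accession, 10695 by gene ID, 153 by symbol and 83 by synonym, and the other 2439 and 10246 kept the file's symbol or probe name. A gene was represented by its brightest probe and tested if this probe passed the scanner's background call on 5 or more of 16 arrays.

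The test was limma 3.58.1 in R 4.3.3 (3 groups, no covariates, robust eBayes), two-sided, with Benjamini-Hochberg adjustment over 30947 genes and a threshold of 0.05, checked on simulated data. Exact permutation tests used SciPy 1.17.1; the smallest p they allow is 0.00433 against vehicle and 0.00794 between treated groups. Members and lists were chosen with earlier results of these data known. The named genes are all members, the 2 genes of smallest p per pathway list and comparison, and the 2 genes most correlated with each member. Alternatives were slide as a block or split, the authors' table, normexp with an offset of 50, other probe filters and averages, outlier spots kept, a variance trend, and arrays left out; the fit of each probe on its own, also with the block, was chosen after seeing the data.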

Additional observations from a re-analysis of the deposited data

Results flagged for a closer look

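Each group of arrays was examined for a sample far from the others in each tested member, 24 groups in all, and 1 stood out, where chance gives about 1 in 20 groups. In Il1b, the array of 10 days replicate 4 had 3.3282 log2 relative signal, and the nearest of the other 10 day arrays had 3.64, a gap of 0.73 of the range of the group. The same array was the lowest of its group in Il1a, Il1rn and Nlrp3.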

How the results depend on the processing

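The 24 fold changes of the tested members were recomputed under the alternatives. Of 213 refitted values besides those without single arrays 9 changed sign, as did 10 of 48 differences within slides, and no member reached the adjusted threshold; the lowest adjusted p was 0.94. At 10 days against vehicle, unadjusted limma p-values under 0.05 also came for Il1a with normexp (0.042) and with probes above background on all arrays (0.049), and for Il1rn with the mean of its probes (0.044); at 10 days against 48 h Il1a had 0.047 without the arrays sharing an ID number. With slide as a block, 10 days against 48 h became -0.0037 for Casp1 and 0.0267 for Nlrp3. The authors' table gave 0.0268 for Nlrp3 in that comparison, and normexp gave 0.0450 for Nlrp3 and 0.0022 for Il1r2, and 0.1087 for Il33 at 48 h against vehicle. Without the arrays sharing an ID number, Il18 at 10 days against vehicle became -0.0362, and Il1a and Il1r2 at 48 h became 0.1914 and 0.0054. The cause was not tested. Leaving out each array in turn changed the sign in 17 of 384 values: the ranges were -0.0318 to 0.0998 for Casp1 and -0.1043 to 0.0873 for Nlrp3 at 10 days against 48 h, -0.0362 to 0.1917 for Il18 at 10 days against vehicle, and at 48 h against vehicle -0.237 to 0.0082 for Il18, -0.3298 to 0.0805 for Il1a, -0.1483 to 0.0304 for Il1b, -0.0572 to 0.0559 for Il1r2 and -0.6513 to 0.6891 for Il33. At 10 days against vehicle Il1a stayed between -1.01 and -0.46, Il1b between -0.32 and -0.19, Il1rn between -0.58 and -0.28, and Il33 between -1.64 and -0.52.

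The count of genes past the threshold, 0 in each comparison, became 1 without the filter on dim probes at 48 h and at 10 days against vehicle (4930448H16Rik, well above background on 4 arrays), and lay between 0 and 1 over the fits without 1 array: 1 without vehicle replicate 1 or 5 at 48 h against vehicle and at 10 days against 48 h (probe A_66_P104043 and Dnaaf4), and 1 without 10 days replicate 4 at 10 days against vehicle (A630052C17Rik). These names were chosen after their values were seen. No paired analysis was possible because replicate numbers only follow the order of the samples. Il1r1 and, on 2 arrays, Il33 are limited by signal over background.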
